A study of Mus musculus with 12 samples.

Results

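Pericentral hepatocytes are the hepatocytes that surround the central vein of the liver lobule, and in these data they were the 3135 liver tissue nuclei with the most pericentral transcript content among 53467 nuclei in the whole series. Their choice rested on counts of unique molecular identifiers (UMIs, each standing for a captured RNA molecule). Liver nuclei that the authors annotated as hepatocytes were taken (14922 of 20024), the 995 nuclei of cluster 19 and 1375 nuclei with fewer than 2000 UMIs were left out, and the remaining 12552 were scored. The score was the log2 ratio of the summed UMIs, each sum plus 1, of 8 pericentral genes (Cyp2e1, Cyp1a2, Slc1a2, Glul, Oat, Lgr5, Tbx3 and Cyp2c29) over 8 periportal genes (Hal, Cyp2f2, Gls2, Hsd17b6, Etnppl, Sds, Amdhd1 and Cryl1). The top 25% of the score in each mouse were the pericentral hepatocytes, the bottom 25% are called periportal (3135 nuclei), and the 6282 nuclei between them midlobular. Because these 16 genes defined the groups, they are given below only as a description, and the genes tested are others. Glul also serves further below to divide the pericentral hepatocytes.

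The study profiled nuclei from liver tissue (Liver), from the collagenase-digested cells directly after isolation (Cell Suspension) and from hepatocytes cultured for 24 hours (Primary Hepatocytes) of 8 mice. The labels and methods name no genetic change and no treatment of the animals: the methods describe male chow-fed C57BL/6NTac mice aged 10 to 12 weeks, whereas the labels give the strain as C57BL6J. No genotype separated the groups, each mouse gave 1 sample of each kind, and only the culture medium of Primary Hepatocytes held added dexamethasone and insulin. The Liver sample was a piece of the median lobe, frozen after the anesthetized animal had been perfused with a chelating buffer, so that it was not a wholly undisturbed liver. The 24 samples were hashtagged and mixed in 6 pools of 4.

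In the liver lobule, blood flows from the portal tract to the central vein, and oxygen, nutrients and hormones change along that path. Wnt ligands and R-spondin 3 from the endothelium of the central vein keep β-catenin active in the neighboring hepatocytes. Pericentral hepatocytes are known for cytochrome P450 drug metabolism, bile acid synthesis and, in the layer touching the vein, glutamine synthesis from ammonia, while periportal hepatocytes are known for the urea cycle and gluconeogenesis.

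Each mouse contributed between 132 and 548 pericentral hepatocytes (median 432), and these gave 1787786 to 8819782 UMIs per mouse once summed. The median UMI count per pericentral nucleus lay between 7656 and 16474. The lowest score of a pericentral hepatocyte was 2.75 to 4.09 over the mice, and the highest score outside the group was 2.74 to 4.09, so the boundary is a cut through a continuum and not a gap. Between 5.68% and 8.66% of each mouse's scored nuclei lay within 0.5 of that cut. Among the authors' clusters, cluster 18 (854 of 885 nuclei) and cluster 23 (317 of 326) consisted almost wholly of pericentral hepatocytes. Clusters 6, 11, 13 and 15 drew 94.8% to 99.7% of their nuclei from a single mouse each and held 15.6% to 18.6% pericentral hepatocytes. Of the members' barcode sequences, 44 also occurred in another pool.

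Among the defining genes, Cyp2e1, the ethanol-oxidizing P450, had 2191, 2586 and 3421 CPM (counts scaled to the library size, as lowest, median and highest of 8 mice) in pericentral hepatocytes and 11.1, 19.8 and 28.9 CPM in periportal hepatocytes. With every nucleus thinned to 2000 UMIs, 99.2% of pericentral, 59.7% of midlobular and 3.87% of periportal hepatocytes held a Cyp2e1 UMI. Endothelial nuclei, which should lack Cyp2e1, held it in 20.7% at the same thinned depth (31.6% unthinned, at a median of 3703 UMIs against 11189 in pericentral hepatocytes), above the periportal share. Whether these UMIs came from free RNA was not tested. Glul, which encodes glutamine synthetase, was detected in 36.2% of thinned pericentral hepatocytes (52.7% unthinned), against 7.21% of midlobular and 8.74% of endothelial nuclei. Lgr5, an R-spondin receptor, was detected in 34.5% of pericentral, 2.50% of midlobular and 1.28% of endothelial nuclei. The defining set therefore mixed a gene present in nearly every member with genes that most thinned members lacked.

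The label was checked against 34 textbook pericentral genes outside the score. Of these, 32 were higher and 2 lower in pericentral than in periportal hepatocytes by edgeR's quasi-likelihood test with the mouse as a block and Benjamini-Hochberg adjustment, with a median log2 fold change of 3.004. Among all 23043 genes tested, 11.5% were called higher and 10.6% lower, and the median was 0.01. The exceptions were Sult5a1, a sulfotransferase (log2 fold change -3.06, SE 0.108, adjusted p = 4.68e-27), and Tcf7l2, a transcription factor of the Wnt pathway (-0.33, SE 0.0454, adjusted p = 8.3e-08). The pericentral list also held Cyp2c37, Cyp2c50 and Cyp2c54, which can share reads with the defining gene Cyp2c29 and so are not fully independent of the score. Of 32 textbook periportal genes, 29 were lower and 3 higher, with a median of -1.06. Of 10 general hepatocyte markers, 3 were higher and 6 lower than in periportal hepatocytes (median -0.25), and Alb had 935, 1826 and 3202 CPM in pericentral hepatocytes. Endothelial nuclei carried these markers too, at a sum of 2501, 3307 and 5002 CPM, below the lowest pericentral sum of 12050 CPM.

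The comparison of pericentral with periportal hepatocytes of the same mice showed which other genes differ between the ends of the score. A total of 2646 genes were higher and 2447 lower in pericentral hepatocytes at an adjusted p below 0.05. Most differences were small: 739 of the higher and 571 of the lower genes reached an absolute log2 fold change of 1, and 81 and 39 reached 4.

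Cyp2c38, a P450 of the drug- and fatty-acid-oxidizing Cyp2c family (chr19:39389556-39463075, GRCm38), had 207, 481 and 2124 CPM in pericentral, 9.84, 23.6 and 246 CPM in midlobular and 1.58, 4.32 and 5.90 CPM in periportal hepatocytes. The pericentral and periportal ranges were far apart, and the log2 fold change was 7.71 (SE 0.227, adjusted p = 4.2e-30). Its relatives Cyp2c37 (6.51, SE 0.194, adjusted p = 5.65e-30) and Cyp2c54 (5.73, SE 0.145, adjusted p = 2.03e-32) lie on the same chromosome as Cyp2c29, a defining gene. Near-identical Cyp2c genes can share reads, so how the difference divides among them is uncertain. Cyp2a5, which oxidizes coumarin and nicotine, is outside that family and had 165, 308 and 622 CPM against 2.89, 5.18 and 13.3 CPM periportally (5.90, SE 0.118, adjusted p = 2.66e-36).

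Aldh3a2, the fatty aldehyde dehydrogenase, had 136, 282 and 362 CPM in pericentral and 0, 2.62 and 3.96 CPM in periportal hepatocytes (log2 fold change 6.63, SE 0.146, adjusted p = 1.03e-34). Rdh9, a member of the retinol dehydrogenase family, rose from 1.04, 1.72 and 2.71 CPM to 31.3, 76.2 and 146 CPM (5.38, SE 0.138, adjusted p = 2.85e-32). For both genes the lowest pericentral mouse was far above the highest periportal mouse.

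Among regulators, Pparg, the nuclear receptor best known from fat cells, had 114, 142 and 175 CPM in pericentral, 21.2, 29.8 and 40.6 CPM in midlobular and 0.903, 1.89 and 3.11 CPM in periportal hepatocytes. Its log2 fold change over periportal was 6.37 (SE 0.115, adjusted p = 1.13e-37), and its 3 ranges did not overlap. Esrrg, an orphan nuclear receptor of the estrogen-related group, had 339, 493 and 703 CPM against 5.29, 6.06 and 11.8 CPM (6.07, SE 0.116, adjusted p = 4.32e-37). Tox, a high-mobility-group factor known from T cell development, had 429, 844 and 1223 CPM against 6.83, 14.2 and 51.2 CPM (5.44, SE 0.145, adjusted p = 1.08e-31). All 3 were thus higher in every mouse.

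The surface proteins in this group included Hcrtr2, the orexin receptor 2 (6.41, SE 0.185, adjusted p = 2.1e-30), Tenm3, a teneurin of cell adhesion (5.68, SE 0.0991, adjusted p = 5.19e-38), and Susd4, a regulator of complement (5.45, SE 0.129, adjusted p = 1.17e-33). Tenm3 had 608, 884 and 1099 CPM in pericentral and 11.9, 16.6 and 33.4 CPM in periportal hepatocytes. The list also held 2 noncoding transcripts: Tbx3os1, antisense to the defining gene Tbx3 (6.37, SE 0.136, adjusted p = 3.26e-35), and the long intergenic RNA AC102159.1 (6.49, SE 0.182, adjusted p = 6.53e-31). Because Tbx3os1 overlaps a gene of the score, its difference is not independent of the rule.

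On the other side, Cdh1, the epithelial cadherin, had 1.67, 3.53 and 5.15 CPM in pericentral, 51.3, 60.3 and 84.0 CPM in midlobular and 115, 150 and 230 CPM in periportal hepatocytes (log2 fold change -5.58, SE 0.125, adjusted p = 2.07e-34). The ranges of the 3 zones did not overlap. Hsd17b13, a lipid droplet enzyme, fell from 244, 292 and 378 CPM to 3.401, 7.26 and 14.99 CPM (-5.34, SE 0.126, adjusted p = 1.07e-33). Plxna2, a semaphorin receptor, had 5.21, 9.07 and 20.02 CPM against 178, 329 and 508 CPM (-4.85, SE 0.126, adjusted p = 4.38e-32).

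Tcf7l1, a TCF-family factor that often represses Wnt targets, had 7.85, 12.5 and 17.3 CPM in pericentral and 242, 323 and 474 CPM in periportal hepatocytes (-4.64, SE 0.105, adjusted p = 2.11e-34). The remaining genes chosen by the same rule were the protease Ctsc (-5.33), the ephrin Efna3 (-4.89), the metalloprotease inhibitor Reck (-4.78), the heparan sulfate sulfatase Sulf2 (-4.64), the muscarinic receptor Chrm3 (-4.47) and the glutamate receptor Grm8 (-4.39). In none of these 10 genes did the pericentral and periportal ranges of the mice overlap.

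**Figure D1:**
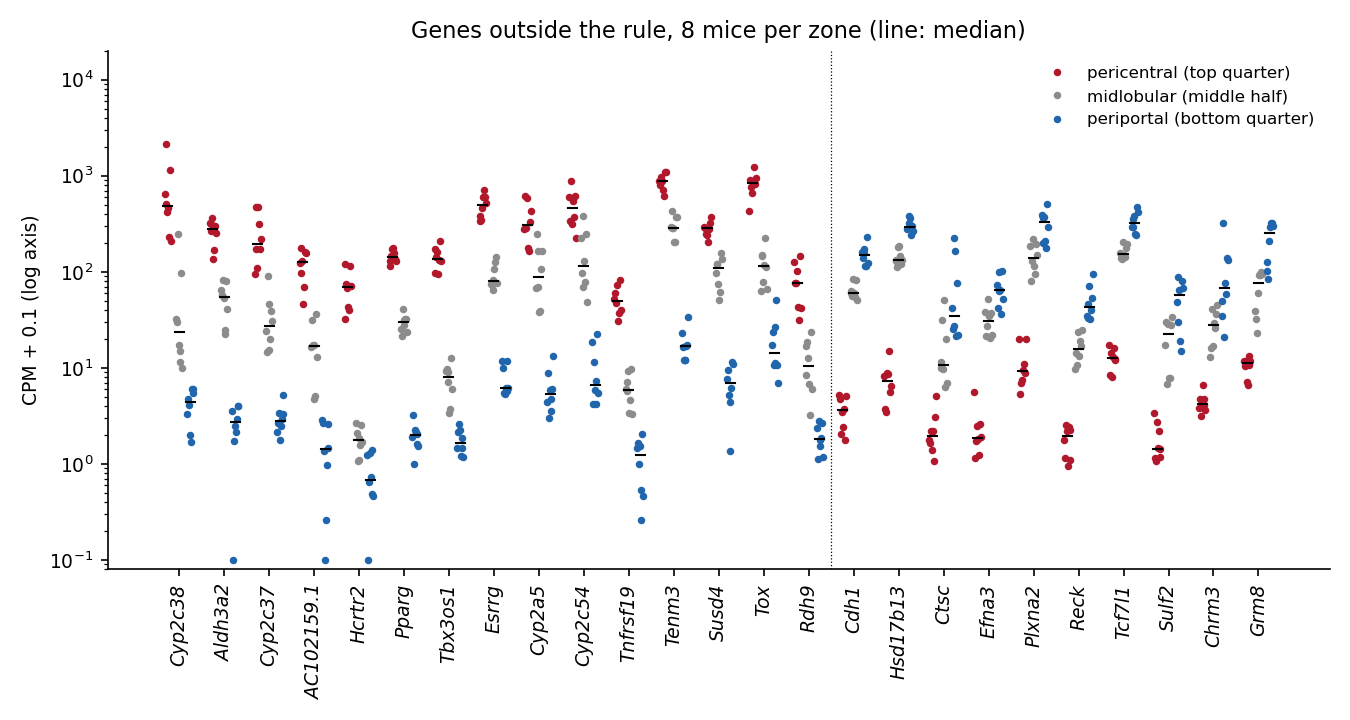
CPM plus 0.1 (log axis) of 25 genes outside the score, 15 higher and 10 lower in pericentral than periportal hepatocytes, with a point for each of 8 mice per zone and a line at the median. Red and blue points do not overlap for any gene, and the grey midlobular medians lie between them, although midlobular points of single mice overlap the pericentral range for Cyp2c38, Cyp2a5 and Cyp2c54 and the periportal range for Hcrtr2, Ctsc, Efna3, Plxna2, Sulf2, Chrm3 and Grm8.

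Of 69 tested P450 genes of families 1 to 4 outside the score, 32 were higher and 7 lower (median log2 fold change 0.50), against the 11.5% and 10.6% called over all genes. The same shares stand beside the other lists compared with periportal hepatocytes of Liver below. They cover all genes tested at any level, and the part of expression level in the number of list members called was not tested. Of 24 glutathione transferases 12 were higher and 1 lower (median 0.22), and of 42 glucuronosyl- and sulfotransferases 14 were higher and 6 lower (0.24). Cyp3a11, a broad drug-oxidizing P450, had 145, 681 and 1282 CPM against 15.1, 32.0 and 178 CPM, with overlapping ranges but a higher pericentral level in 8 of 8 mice (3.81, SE 0.152, adjusted p = 4.69e-25). Por, the reductase that passes electrons to microsomal P450s, was higher at 1.63 (SE 0.0839, adjusted p = 5.68e-21).

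Of 13 xenobiotic receptors and P450 partners, 8 were higher and 2 lower, with a median of 0.61. Ahr, the receptor for dioxin-like ligands, had 126, 273 and 320 CPM against 8.41, 16.8 and 25.8 CPM (3.90, SE 0.0998, adjusted p = 2.48e-32). Nr1i3, which encodes the constitutive androstane receptor, had 70.2, 118 and 198 CPM against 2.06, 6.56 and 14.1 CPM (4.096, SE 0.118, adjusted p = 2.01e-30). Nr1i2, which encodes the related pregnane X receptor, had 143, 192 and 416 CPM against 163, 212 and 381 CPM, and its difference did not pass the test (-0.13, SE 0.0561, adjusted p = 0.108). It was called lower, with the score without Cyp2e1 (adjusted p = 0.0392), between the top and bottom 10% of the score (0.0196), without mouse 2 (0.0415) and without mouse 8 (0.0249). Tiparp, a target of Ahr, was lower (-0.60, SE 0.0969, adjusted p = 2.61e-06).

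In bile acid synthesis and transport, 18 of 26 genes were higher and 3 lower (median 0.43). Cyp7a1, the rate-limiting enzyme of the classical pathway, had 155, 369 and 624 CPM in pericentral and 1.44, 9.51 and 23.8 CPM in periportal hepatocytes (5.37, SE 0.103, adjusted p = 4.32e-37). Cyp27a1, which oxidizes the sterol side chain, differed less (1.56, SE 0.056, adjusted p = 8.93e-27), and Cyp8b1, the 12α-hydroxylase that sets the share of cholic acid, was higher by 0.48 (SE 0.0808, adjusted p = 4.48e-06). Slco1b2, an uptake transporter for bile acids and drugs, had 3741, 4628 and 5397 CPM against 608, 748 and 1000 CPM (2.58, SE 0.0494, adjusted p = 4.32e-37). The canalicular export pump Abcb11 was slightly lower (-0.30, SE 0.0635, adjusted p = 1.70e-04). Among 26 drug transporters, 17 were higher and 3 lower (0.53).

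Major urinary protein genes went both ways. Of 22 tested, 10 were higher and 6 lower (median 0.80). Mup17 had 72.8, 186 and 290 CPM against 3.50, 8.48 and 22.4 CPM (4.11, SE 0.148, adjusted p = 1.04e-26), while Mup20, the male pheromone darcin, had 163, 197 and 306 CPM against 467, 618 and 1054 CPM (-1.60, SE 0.0663, adjusted p = 1.91e-24). Most Mup genes are near-identical copies that can share reads, so the values of single members are uncertain.

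Of 41 genes of the Wnt pathway, 20 were higher and 5 lower (median 0.19). Axin2, the scaffold induced by β-catenin, had 20.8, 54.9 and 76.0 CPM in pericentral, 2.68, 9.97 and 15.9 CPM in midlobular and 0.317, 1.38 and 2.34 CPM in periportal hepatocytes (5.18, SE 0.144, adjusted p = 5.59e-31). Rnf43, a ligase that removes Frizzled receptors, was higher by 2.31 (SE 0.055, adjusted p = 1.67e-33), and its relative Znrf3 by 0.98 (SE 0.0599, adjusted p = 2.79e-18).

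Notum, which inactivates secreted Wnt, had 14.03, 21.4 and 37.5 CPM against 0.791, 1.68 and 2.16 CPM (3.87, SE 0.145, adjusted p = 4.02e-26). Tnfrsf19, a receptor known as a Wnt target, had 30.5, 49.2 and 82.5 CPM against 0.158, 1.14 and 1.95 CPM (5.71, SE 0.129, adjusted p = 2.11e-34). Sp5, a transcription factor induced by Wnt, had 0.552, 1.29 and 4.17 CPM and was at 0 in the periportal sums of all 8 mice. Tcf7l1 and Tcf7l2 were among the 5 lower genes, as given above.

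The promoters of 2 pericentral genes are shown because they hold the core sequence bound by TCF/LEF factors, the DNA partners of β-catenin. Each run covers the 250 bases before the RefSeq transcription start, 5′ to 3′ on the plus strand of GRCm38.p6, and capitals mark CTTTGAA or CTTTGAT on either strand. Kif26b encodes a kinesin, and its window is chr1:178528875-178529124, with the match 10 bases before the start. The window of Cyp2e1 is chr7:140763569-140763818, with the match 135 bases before the start.
Kif26b: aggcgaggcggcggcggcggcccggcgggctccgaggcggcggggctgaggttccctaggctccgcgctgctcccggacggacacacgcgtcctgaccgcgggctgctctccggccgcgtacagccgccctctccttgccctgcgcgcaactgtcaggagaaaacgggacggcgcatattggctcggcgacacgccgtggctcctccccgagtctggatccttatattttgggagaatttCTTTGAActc
Cyp2e1: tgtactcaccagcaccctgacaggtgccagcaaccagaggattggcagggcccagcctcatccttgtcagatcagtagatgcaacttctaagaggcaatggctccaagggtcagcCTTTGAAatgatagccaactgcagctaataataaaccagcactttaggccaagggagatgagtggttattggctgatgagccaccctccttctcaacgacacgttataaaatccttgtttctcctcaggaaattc
Of 15898 tested genes with a promoter in the table, 1034 (6.50%) held either sequence. The share was 7.78% (39 of 501) among genes higher in pericentral hepatocytes by a log2 fold change of at least 1 and 6.52% (24 of 368) among those equally lower, close to that background. The windows of Axin2, Rnf43 and Glul held no match.

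Nitrogen metabolism divided by direction. Of 24 genes for the urea cycle, ammonia and glutamine, 7 were higher and 13 lower in pericentral hepatocytes (median -0.27). Cps1, the mitochondrial enzyme that starts the urea cycle, had 1668, 3171 and 5932 CPM against 3417, 5382 and 11550 CPM, with overlapping ranges but a lower pericentral value in 8 of 8 mice (-0.89, SE 0.0798, adjusted p = 8.09e-13). Ass1 (-1.20, SE 0.0646, adjusted p = 2.94e-20), Asl (-1.86, SE 0.0881, adjusted p = 3.01e-22), Arg1 (-1.48, SE 0.0786, adjusted p = 1.88e-20) and Otc (-0.84, SE 0.0466, adjusted p = 1.01e-19), the other enzymes of the cycle, were also lower in every mouse. On the higher side stood the ammonium channel Rhbg (3.63, SE 0.363, adjusted p = 2.06e-11), the amino acid exchanger Slc1a4 (2.43, SE 0.233, adjusted p = 6.21e-12) and glutamate dehydrogenase, Glud1 (0.65, SE 0.0557, adjusted p = 2.06e-13).

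In gluconeogenesis and glycolysis 3 of 27 were higher and 17 lower (median -0.47). The gluconeogenic Pck1 (-1.27, SE 0.10, adjusted p = 1.31e-14), Fbp1 (-1.29, SE 0.0614, adjusted p = 3.65e-22) and G6pc (-0.64, SE 0.0734, adjusted p = 1.06e-09) were lower. So was Pklr, the liver pyruvate kinase of glycolysis (-0.77, SE 0.12, adjusted p = 1.17e-06). In amino acid breakdown 10 of 37 genes were higher and 16 lower (-0.05). The largest decreases were in the serine dehydratase-like Sdsl (-5.34, SE 0.233, adjusted p = 1.41e-23), the glycine-cleaving Gldc (-4.17, SE 0.125, adjusted p = 8.36e-30) and the histidine-degrading Uroc1 (-2.79, SE 0.071, adjusted p = 2.15e-32).

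Lipid genes divided between synthesis and oxidation. In lipogenesis 8 of 28 were higher and 14 lower (median -0.46), with Fasn, fatty acid synthase, at 28.2, 101 and 149 CPM against 69.5, 203 and 351 CPM (-1.13, SE 0.0659, adjusted p = 5.90e-19) and Acaca, acetyl-CoA carboxylase, at -0.93 (SE 0.0523, adjusted p = 1.51e-19). In cholesterol synthesis and uptake 4 of 24 were higher and 9 lower (-0.17). In fatty acid oxidation and ketogenesis 23 of 34 were higher and 3 lower (0.29). The largest of these were Cyp4a14 (3.09, SE 0.204, adjusted p = 4.18e-17) and Cyp4a10 (2.38, SE 0.146, adjusted p = 3.4e-18), ω-hydroxylases of fatty acids, while Cpt1a, the carnitine palmitoyltransferase that admits fatty acids to mitochondria, was lower by a small amount (-0.16, SE 0.045, adjusted p = 0.00739). This call was lost without mouse 5 (-0.11, adjusted p = 0.0684) and in spliced counts (-0.12, adjusted p = 0.310).

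Among 49 secreted plasma proteins, 10 were higher and 31 lower (median -0.27), against 11.5% and 10.6% of all genes. Alb, albumin, was lower by 1.05 (SE 0.0754, adjusted p = 7.28e-16) and the heme carrier Hpx by 1.51 (log2 fold change -1.51, SE 0.0914, adjusted p = 2.20e-18). The complement component C6 was higher (1.89, SE 0.09, adjusted p = 3.47e-22). Of 24 retinoid and alcohol genes 14 were higher and 5 lower (0.36), among them the retinaldehyde dehydrogenase Aldh1a1 (2.42, SE 0.0631, adjusted p = 5.06e-32).

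Of 48 liver transcription factors 13 were higher and 18 lower (-0.10), and Hnf4a, the central hepatocyte factor, was lower by a small amount (-0.24, SE 0.0496, adjusted p = 1.57e-04). Of 21 genes of the growth hormone axis 7 were higher and 6 lower (0.03). Of 22 oxygen-responsive genes 4 were higher and 3 lower (0.07), a share near that of all genes. Among them Egln3, a prolyl hydroxylase induced by low oxygen, had 21.4, 43.7 and 58.9 CPM against 3.43, 8.09 and 18.5 CPM (2.29, SE 0.118, adjusted p = 6.07e-21), while Vegfa, the vascular growth factor, was lower (-0.23, SE 0.0496, adjusted p = 2.05e-04), but not in unspliced counts (-0.02, adjusted p = 0.887). Genes of the cytosolic ribosome had 20 higher members of 78 and no lower one (0.16), and the mitochondrial genome had 8 lower genes of 13 and no higher one (-0.20). Against midlobular hepatocytes no ribosome gene was higher and 3 were lower (-0.05).

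**Figure D2:**
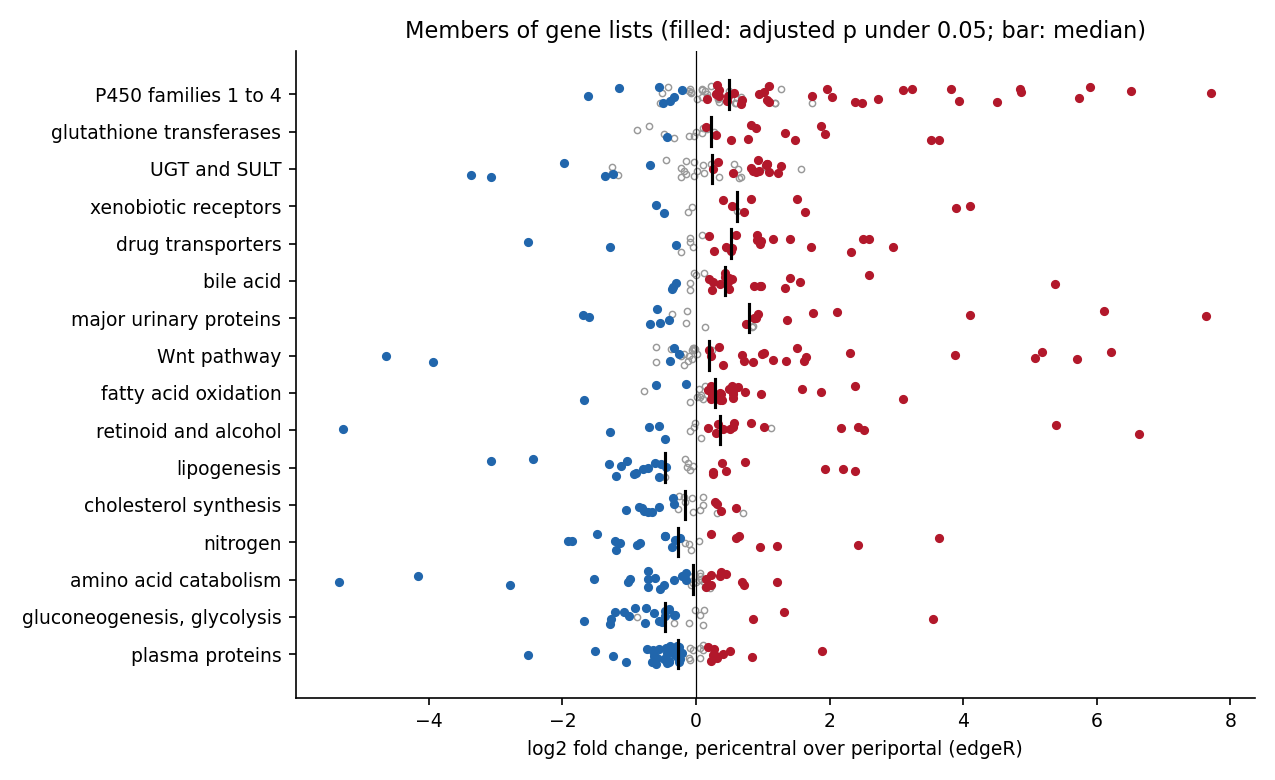
Log2 fold change of pericentral over periportal hepatocytes for the tested members of 16 gene lists, with a point per gene (filled red or blue where the adjusted p was under 0.05, open otherwise) and a bar at the list median. P450, transporter and bile acid genes extend far to the right, while the nitrogen, glucose, lipogenesis and plasma protein lists have medians below 0.

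Against midlobular hepatocytes, 1731 genes were higher (7.51% of 23043) and 1932 lower (8.38%). The balance of directions depended on the scaling, with 47.3% of the called genes higher here, 54.7% with RLE scaling, which uses size factors of the DESeq2 type (2012 higher and 1669 lower) and 55.5% in DESeq2 (1873 and 1503). Midlobular nuclei were shallower than pericentral ones in 8 of 8 mice, with a median of 5030 to 13980 UMIs against 7656 to 16474, and their spliced share was higher in 8 of 8 (15.1% to 19.8% against 14.01% to 18.8%). The depth gap is partly set by the score, which adds 1 UMI to each sum and so draws shallow nuclei towards the middle. With the score from thinned nuclei it was smaller in 8 of 8 mice and turned in mouse 3 (15571 UMIs in midlobular against 15208 in pericentral nuclei). Of 13 mitochondrially encoded genes 12 were lower in pericentral hepatocytes (median -0.33), and the part of these shifts in the result was not tested. The genes with the largest rise were not the leading genes of the periportal comparison in the same order. Hcrtr2 led, with 31.8, 69.3 and 120 CPM in pericentral, 0.965, 1.68 and 2.59 CPM in midlobular and 0, 0.588 and 1.31 CPM in periportal hepatocytes (log2 fold change over midlobular 5.29, SE 0.14, adjusted p = 4.78e-31). Its pericentral range stood far above both others, which overlapped.

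Rcan2, a calcineurin regulator, had 45.6, 101 and 137 CPM against 3.31, 4.402 and 6.12 CPM in midlobular hepatocytes (4.44, SE 0.10, adjusted p = 3.77e-33). Kif26b had 35.7, 102 and 144 CPM against 4.30, 6.08 and 7.86 CPM (3.82, SE 0.12, adjusted p = 2.25e-28). Airn, a noncoding RNA antisense to Igf2r (chr17:12741311-12860136, GRCm38), had 116, 190 and 315 CPM against 12.1, 22.5 and 31.9 CPM (3.11, SE 0.10, adjusted p = 7.28e-28). Gna14, a G protein subunit of the Gq class, had 32.2, 78.2 and 134 CPM against 4.82, 8.96 and 12.3 CPM (3.04, SE 0.13, adjusted p = 2.49e-23). None of these pericentral ranges touched the midlobular range, but the difference of several from periportal hepatocytes depended on the splicing state. It was 4.15 in unspliced and 0.58 in spliced RNA for Gna14, which lost its call in the latter (adjusted p = 0.297), 4.45 and 1.48 for Kif26b, and 5.31 and 2.54 for Rcan2.

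Dividing each mouse's scored nuclei into 10 equal parts showed how steep these patterns were. If a gene were even along the score, the most pericentral of the 10 parts would hold 10% of the sum over all parts. Hcrtr2 had 76.0% ± 6.12 (SD, n = 8) there, Rcan2 68.9% and Kif26b 67.2% ± 6.09. By contrast, Cyp7a1 had 29.1% ± 3.69, Tenm3 29.3% ± 1.84, Susd4 28.1% and Slco1b2 22.0%. The mean level of Hcrtr2 was 1.60 CPM in the seventh part, 4.71 in the eighth, 32.6 in the ninth and 130 in the last. Cyp7a1 climbed over more parts of the score, from 84.5 CPM in the fifth part through 216 in the seventh to 441 in the last. Both kinds of gene were thus pericentral, and they differed in how far along the score the expression reached. Position in the lobule itself was not measured.

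**Figure D3:**
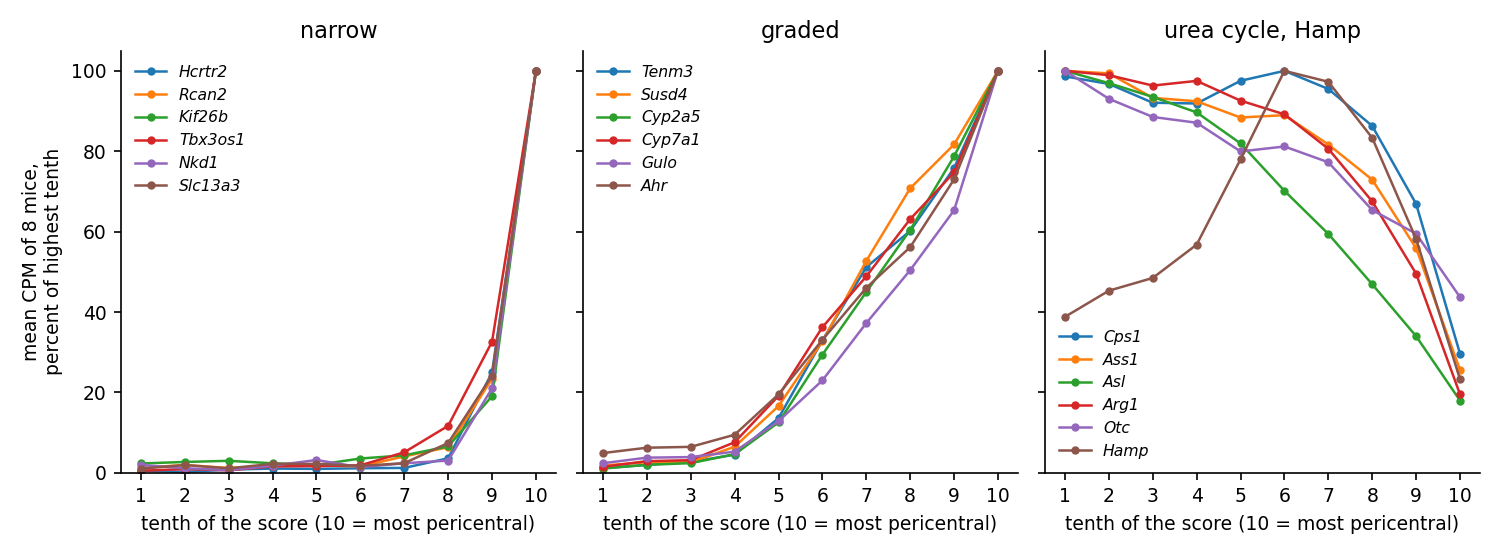
Mean CPM of 8 mice in each of 10 equal parts of the score (10 is most pericentral), as a percent of the gene's highest part. Genes of the left panel stay low up to the eighth part and climb steeply in the last 2, those of the middle panel rise from the fifth part on, and urea cycle genes of the right panel fall mainly in the last 2 parts, with Hamp highest in the sixth.

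The pericentral hepatocytes were not uniform. After thinning to 2000 UMIs, 825 members held at least 2 Glul UMIs (Glul-rich), 2035 held none (Glul-free) and 275 were in neither group. Glul is a gene of the score and raises it, so this division is not independent of the score. Glul-rich nuclei were 14.4% to 40.2% of the pericentral hepatocytes of a mouse (median 24.0%). They had fewer UMIs than Glul-free nuclei in 8 of 8 mice, with medians over mice of 8904 and 12320, and the part of this difference in the results was not tested. Within the same mice, 681 genes were higher in Glul-rich nuclei (3.64% of 18707 tested) and 1125 lower (6.01%), 9.65% in either direction. The 12 endothelial markers summed to 56.2, 81.4 and 89.8 CPM in Glul-rich and 18.6, 36.2 and 56.7 CPM in Glul-free nuclei, with 3 higher and none lower, and of 13 mitochondrially encoded genes 6 were higher and none lower. The part of these shifts in the result was not tested. The share of higher genes among those called was 37.7%, but 52.3% with another scaling (DESeq2-type size factors), so the balance of directions depends on the scaling. This edgeR fit estimated no difference in spread between genes beyond their mean level, which makes its p-values very small, so fold changes and ranges are given instead. The SEs beside them were derived from the same test statistic and are small for the same reason. Limma-voom with the mouse as a block, added after seeing the data, called 975 genes higher and 944 lower, and DESeq2 633 and 556. Of the Glul-rich nuclei 95.2% lay in the authors' clusters 18 and 23, against 12.4% of the Glul-free ones, a description only, since clusters and Glul groups come from the same nuclei.

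Most of the urea cycle RNA was missing from Glul-rich nuclei. Cps1 had 87.1, 277 and 682 CPM in Glul-rich and 2381, 4294 and 7552 CPM in Glul-free pericentral hepatocytes, with 3995, 5908 and 8962 CPM in midlobular hepatocytes. The Glul-free median lay below the midlobular one but within its range, and no Glul-rich value reached the Glul-free range (log2 fold change -3.83, SE 0.05). Arg1, arginase, had 16.1, 29.2 and 56.8 CPM in Glul-rich, 177, 542 and 1060 CPM in Glul-free (-3.94, SE 0.07) and 421, 1099 and 1725 CPM in midlobular nuclei.

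Ass1, argininosuccinate synthase, had 49.3, 133 and 415 CPM in Glul-rich and 690, 1119 and 2565 CPM in Glul-free nuclei (-2.85, SE 0.05). Asl (-1.58, SE 0.07) and Otc (-1.002, SE 0.06) differed less, and their ranges came closer or met: Asl had 30.7 to 112 CPM against 97.2 to 426 CPM, and Otc 138 to 247 CPM against 285 to 443 CPM. All 5 urea cycle enzymes were lower in Glul-rich nuclei of 8 of 8 mice, but by unequal amounts. Of the 24 nitrogen genes, 15 were lower and 3 higher in Glul-rich nuclei (median -0.40). Over all genes 6.01% were lower and 3.64% higher (median -0.05).

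Other genes shared this pattern. The insulin-like growth factor binding protein Igfbp2 had 8.03, 17.5 and 44.8 CPM in Glul-rich and 55.5, 265 and 374 CPM in Glul-free nuclei (-3.42, SE 0.09). Complement C9 had 9.23, 24.7 and 66.3 CPM against 82.7, 179 and 499.7 CPM (-3.15, SE 0.09). Hmcn2, a hemicentin of the extracellular matrix, had 2.17, 3.44 and 12.3 CPM against 38.1, 54.5 and 88.3 CPM (-3.56, SE 0.17). Of 49 plasma protein genes, 28 were lower and 4 higher in Glul-rich nuclei (median -0.26), and of 10 hepatocyte markers 6 were lower and none higher. Over all genes 6.01% were lower and 3.64% higher (median -0.05). These counts come from the edgeR fit, in which the balance of directions depended on the scaling. Alb differed by -0.19 (SE 0.04).

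On the higher side, Nkd1, a feedback inhibitor that binds Dishevelled in the Wnt pathway, had 11.6, 40.2 and 127 CPM in Glul-rich and 0, 0.936 and 1.99 CPM in Glul-free nuclei (6.04, SE 0.21). Hcrtr2 had 136, 237 and 298 CPM against 3.94, 7.83 and 26.03 CPM (4.66, SE 0.09), and Kif26b 195, 336 and 405 CPM against 8.22, 16.6 and 26.9 CPM (4.20, SE 0.08). Their high level in pericentral hepatocytes as a whole was therefore carried by the Glul-rich nuclei.

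Slc13a3, a sodium-coupled dicarboxylate transporter, had 55.0, 94.9 and 138 CPM in Glul-rich and 2.25, 8.95 and 14.9 CPM in Glul-free nuclei (3.68, SE 0.12), and the ammonium channel Rhbg 7.16, 13.4 and 18.2 CPM against 0, 0.506 and 2.187 CPM (3.86, SE 0.31). The ranges were apart for both. Genes with a gradual slope differed less: Axin2 by 1.403 (SE 0.09), Gulo, an enzyme of vitamin C synthesis, by 1.04 (SE 0.05), Cyp7a1 by 0.71 (SE 0.05) and Ahr by 0.60 (SE 0.05). Mup17, which was higher in pericentral hepatocytes as a whole, had 92.7, 187 and 266 CPM in Glul-rich and 65.6, 185 and 288 CPM in Glul-free nuclei, with fully overlapping ranges (-0.01, SE 0.06).

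**Figure D4:**
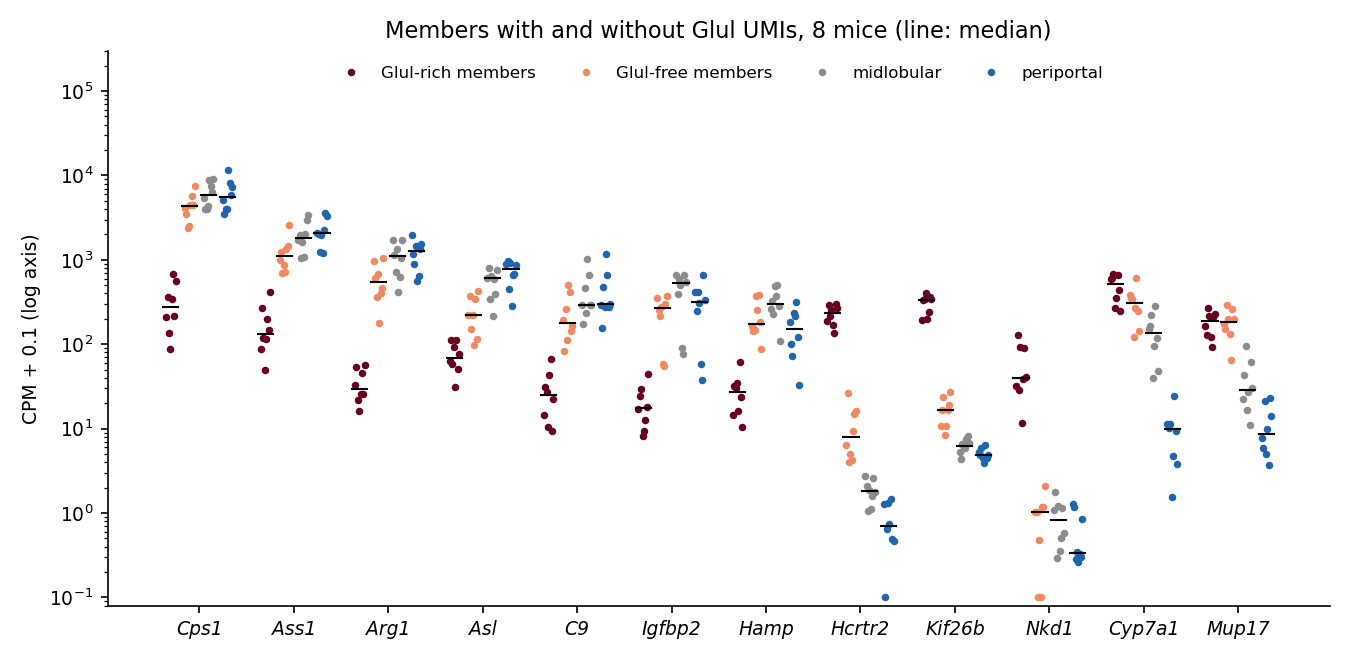
CPM plus 0.1 (log axis) of 12 genes in Glul-rich and Glul-free pericentral, midlobular and periportal hepatocytes, with a point for each of 8 mice and a line at the median. Cps1, Ass1 and Arg1 are lowest in the Glul-rich nuclei, and their Glul-free medians also lie below the midlobular ones, Hcrtr2, Kif26b and Nkd1 are highest there, and Cyp7a1 and Mup17 are high in both pericentral groups.

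Hamp, which encodes the iron hormone hepcidin, had its highest level between the zones. It had 67.6, 131 and 308 CPM in pericentral, 104.8, 299 and 491 CPM in midlobular and 31.6, 149 and 307 CPM in periportal hepatocytes. It was lower in pericentral than in midlobular hepatocytes of all 8 mice (log2 fold change -0.97, SE 0.09, adjusted p = 4.79e-12), while the difference from periportal did not pass the test (0.12, SE 0.0935, adjusted p = 0.430). That difference passed as higher without the filter on low counts (0.14, adjusted p = 0.0406) and as lower between the top and bottom 10% of the score (-0.68, adjusted p = 8.7e-08). Within the pericentral hepatocytes it had 10.3, 26.8 and 61.8 CPM in Glul-rich and 88.6, 173 and 384 CPM in Glul-free nuclei (-2.93, SE 0.09). The median of Igfbp2 was also highest in midlobular hepatocytes. The gene had 45.7, 196 and 295 CPM in pericentral, 74.8, 513 and 654 CPM in midlobular and 36.5, 311 and 653 CPM in periportal hepatocytes. These ranges overlapped, but the pericentral value was below the midlobular one in 8 of 8 mice (-1.21, SE 0.10, adjusted p = 5.61e-13). Midlobular and periportal hepatocytes were not tested against each other for either gene.

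RNA content and splicing were compared in the same nuclei. The median UMI count per nucleus, averaged over mice, was 11660 ± 3255 in pericentral and 10570 ± 2804 in periportal hepatocytes (SD, n = 8), a difference that did not pass a two-sided exact paired permutation test (mean 1092 ± 1484, p = 0.0938, higher in 6 of 8 mice). It did pass the exact test with the score from thinned nuclei (1835, p = 0.00781), at a minimum of 4000 UMIs (1426, p = 0.0469), without mouse 2 (1308, p = 0.0469) and without mouse 4 (1424, p = 0.0469). The share of spliced RNA was lower in 8 of 8 mice, at 16.5% ± 1.43 against 17.6% ± 1.23 (difference -1.08 percentage points, exact p = 0.00781, the smallest that 8 pairs allow, adjusted p = 0.0156). Of 515 genes higher by a log2 fold change of at least 1 and tested in both splicing states, 391 were called higher in spliced and 465 in unspliced RNA, and 355 in both.

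Marker RNA of other cell types was also summed. The 12 endothelial markers summed to 34.5, 47.4 and 65.1 CPM in pericentral and 30.6, 40.1 and 56.4 CPM in periportal hepatocytes, and 2 of them were higher. These were Adgrf5, an adhesion receptor (11.6 against 2.80 CPM in the mean, and 1015 in endothelial nuclei), and Stab2, a scavenger receptor (10.3 against 7.80, and 3420). None of the 8 genes of central vein endothelium, which include the ligands Wnt2, Wnt9b and Rspo3, and none of 9 leukocyte markers passed the test. In unspliced counts alone Lhx6, one of the central vein genes, was lower (-1.17, adjusted p = 0.00764, against -0.58, adjusted p = 0.141, in all counts). Among Kupffer, stellate and biliary markers, Slc40a1, the iron exporter ferroportin (-1.05, SE 0.0839, adjusted p = 2.50e-14), Ank3, Pkhd1 and Sox9 were lower and Reln was higher (0.38, adjusted p = 0.00382). Without mouse 4 the Reln difference was 0.24 and did not pass (adjusted p = 0.101), nor did it in spliced counts (0.86, adjusted p = 0.157). The Kupffer markers summed to 33.4, 41.6 and 110 CPM in pericentral and 56.5, 93.6 and 170 CPM in periportal hepatocytes. The stellate markers had 94.4, 170 and 244 CPM against 117, 231 and 398 CPM, and the biliary markers 121, 156 and 202 CPM against 146, 197 and 261 CPM, with overlapping ranges in each case. Single genes made up most of these sums: Slc40a1 had 44.0 CPM of the pericentral Kupffer sum in the mean, Ank3 129.6 of the stellate and Pkhd1 141 of the biliary sum, and none of the other 9 Kupffer markers passed the test. The biliary keratin Krt19 was at 0 in pericentral hepatocytes. The part of other cells' RNA in the zonal differences was not tested.

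The same score, UMI minimum and 25% cuts were applied to Cell Suspension nuclei annotated by the authors as isolated hepatocytes, with no cluster left out. Suspension nuclei with other annotations were not taken. This gave 2407 pericentral hepatocytes of 9636 eligible nuclei. There, 1882 genes were higher (9.23% of 20379) and 2267 lower (11.1%), 20.4% in either direction, than in periportal hepatocytes of the suspension. Of 20305 genes tested in both, 1200 were higher in both, which was 46.1% of the 2603 in Liver and 63.9% of the 1879 in Cell Suspension, and 23 of the genes higher in Liver were called lower in the suspension. Lower in both were 1406 genes, 57.9% of the 2429 in Liver and 62.0% of the 2267 in Cell Suspension. Of the genes lower in Liver, 42 were called higher in the suspension. The share of higher genes among those called was 45.4%, and 56.2% with the other scaling. A direct test of the change in zonal difference called 960 genes (3.97% of 24164; 2.21% with a higher and 1.76% with a lower difference in the suspension), and 626 without mouse 4. It was lower in the suspension for 210 and higher for 63 of the 2646 genes that were pericentral in Liver, and higher for 219 and lower for 46 of the 2447 that were periportal. Because these genes were chosen on the Liver difference that the interaction subtracts, such an excess is partly set by the choice. Median depth per pericentral nucleus was 3104 to 12630 UMIs in the suspension and the spliced share 18.8% to 32.5%, against 14.01% to 18.8% in Liver. Within the suspension, pericentral nuclei were shallower than periportal ones (4526 to 9805 UMIs) in 7 of 8 mice and had a higher spliced share (20.6% to 24.6% periportally) in 7 of 8, the opposite of Liver. Endothelial markers summed to 45.5, 69.3 and 107 CPM there, with 5 of 12 higher than in periportal hepatocytes of the suspension, and the part of these differences in the result was not tested.

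Several genes of the Glul-rich nuclei had a smaller zonal difference after isolation. Nkd1 had 2.48, 11.1 and 49.5 CPM in Liver and 0, 1.86 and 6.50 CPM in Cell Suspension pericentral hepatocytes, and its zonal log2 fold change was smaller (interaction -3.002, SE 0.87, adjusted p = 0.0297). Kif26b had 36.1, 102 and 144 CPM against 4.49, 22.1 and 60.5 CPM (-1.30, SE 0.36, adjusted p = 0.0181), Rcan2 differed by -1.62 (SE 0.37, adjusted p = 0.00277) and Gna14 by -1.85 (SE 0.35, adjusted p = 1.73e-04). For Hcrtr2 the interaction did not pass the test (-1.96, SE 0.87, adjusted p = 0.234), whereas DESeq2 with the sample as a block called it (-2.49, adjusted p = 0.038). The zonal differences of AC102159.1 (-2.26, SE 0.61, adjusted p = 0.0161) and Pparg (-1.50, SE 0.38, adjusted p = 0.00995) were also smaller, although not past the threshold when the score was computed on thinned nuclei (adjusted p = 0.0797 and 0.0587). For AC102159.1 the same held without mouse 6 (-1.81, adjusted p = 0.123) and without mouse 8 (-2.08, adjusted p = 0.0642), and with the score without Glul, added after seeing the data (-1.84, adjusted p = 0.0897).

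In other genes the interaction was positive. Dlec1, a candidate tumor suppressor gene, had 1.61, 11.03 and 16.3 CPM in pericentral hepatocytes of Liver and 40.4, 110 and 231 CPM in those of Cell Suspension (interaction 2.03, SE 0.21, adjusted p = 6.37e-12), and its zonal log2 fold change went from 0.84 to 2.85. Nr4a1, an immediate early nuclear receptor, had 0.389, 3.69 and 10.9 CPM in Liver and 84.3, 123 and 191 CPM in Cell Suspension (1.84, SE 0.25, adjusted p = 5.32e-08). Its zonal difference turned direction, from -1.02 (SE 0.207, adjusted p = 1.06e-04) in Liver to 0.81 (SE 0.105, adjusted p = 2.98e-10) in the suspension. The pericentral ranges of Liver and Cell Suspension did not meet for either gene. The organic cation transporter Slc22a3 had 26.7, 51.3 and 87.0 CPM in Liver and 9.52, 19.9 and 69.1 CPM in Cell Suspension pericentral hepatocytes, and its zonal difference was larger in the suspension (1.87, SE 0.42, adjusted p = 0.00197). Without mouse 4 the Slc22a3 interaction was 1.12 and did not pass the test (adjusted p = 0.227). Its zonal difference in Liver was 5.83 in unspliced and 0.49 in spliced RNA.

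Levels in pericentral hepatocytes were then compared directly between Cell Suspension and Liver. This test called 1688 genes higher (8.35% of 20226) and 2390 lower (11.8%), 20.2% in either direction. In this fit, which did not pair by mouse, none of the 34 textbook pericentral genes was higher and 9 were lower (median -0.26), whereas 15 of 32 periportal genes were higher and 1 lower (0.76, against -0.03 over all genes). The pericentral nuclei of the suspension were shallower (3990 UMIs, against 10680 in Liver, as medians over mice). The pericentral genes of the score made up 0.60% of their UMIs (0.71% in Liver) and the periportal ones 0.013% (0.0089%), with overlapping ranges. The part of these differences in the result was not tested. The fit without pairing by mouse left several leading genes short of the threshold that the fit with the mouse as a block called. Cyp2c38 had a log2 fold change of -0.66 (SE 0.45, adjusted p = 0.342), against -0.64 (adjusted p = 8.68e-07) with the block. For Airn the adjusted p with the block was 0.00619 (-0.39) and for Susd4 0.0399 (-0.26), both lower in the suspension. In all, 4078 genes were called without and 5490 with the block.

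Cultured hepatocytes (14760 nuclei) were taken as a whole, because the defining genes could not be assumed to mark zones there. They were the cultured nuclei of the authors' clusters 0, 1, 14 and 17. Clusters 8, 12 and 27 (1450, 1733 and 175 cultured nuclei) were left out, although cluster 8 had the highest hepatocyte marker sum, 6609 CPM against 3051 to 5630 CPM in the clusters kept. Endothelial markers summed to 231 CPM in cluster 8 and 5576 CPM in cluster 12, against 60.2 to 136 CPM in the clusters kept. Of 176 genes that were pericentral in Liver with a log2 fold change of at least 1 and at least 50 CPM, 161 were lower in culture than in pericentral Liver hepatocytes, and 111 were lower than in periportal ones. Of all 3655 genes with at least 50 CPM, 2613 and 2551 were lower in the same comparisons. Of 120 genes equally chosen on the periportal side, 71 were below the pericentral and 103 below the periportal level. Because the 176 genes were chosen for a high level in pericentral Liver hepatocytes, a fall from that level is partly set by the choice, and the counts are a description. The cultured hepatocytes were also not divided by zone, whereas each Liver group here was a single zone.

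Cyp7a1 had 155, 370 and 631 CPM in pericentral Liver hepatocytes and 0.509, 0.907 and 3.14 CPM in culture, and Nr1i3 had 71.2, 116 and 197 CPM against 0.160, 0.773 and 1.53 CPM. Axin2 went from 21.1, 54.3 and 75.3 CPM to 0.320, 0.489 and 0.749 CPM. Other genes were above the periportal level: Tox had 174, 271 and 500.1 CPM in culture, Pparg 25.2, 33.6 and 46.3 CPM, Cyp2a5 38.5, 66.0 and 129 CPM and Ahr 108, 149 and 184 CPM. The cultured hepatocytes were not divided by zone. A level between those of pericentral and periportal Liver hepatocytes can therefore also come from a mix of zones, which was not tested. Airn had 138, 201 and 361 CPM in culture, a range that overlapped that of pericentral Liver hepatocytes (118, 192 and 312 CPM).

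**Figure D5:**
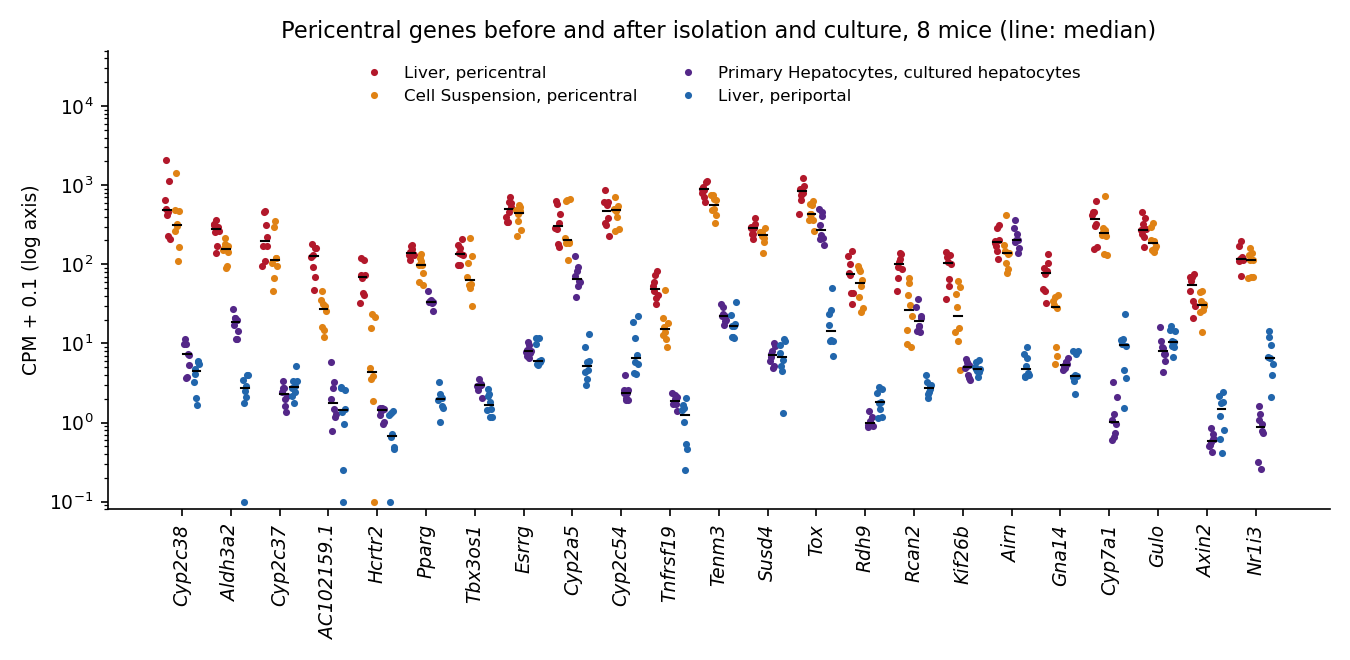
CPM plus 0.1 (log axis) of 23 pericentral genes in pericentral hepatocytes of Liver and Cell Suspension, in cultured hepatocytes of Primary Hepatocytes and in periportal Liver hepatocytes, with a point for each of 8 mice and a line at the median. Cell Suspension lies close to Liver for genes such as Esrrg and Cyp2c54 and far lower for Hcrtr2, Kif26b and AC102159.1, and culture lies far below pericentral Liver for most genes but not for Airn.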

How the data were processed

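Single nuclei of 24 samples, multiplexed with hashtags in 6 pools of 4, were sequenced on a droplet platform, and the authors quantified spliced, unspliced and ambiguous UMIs per nucleus and gene on GRCm38 with the salmon alevin tools (the submitters' processing notes also list bcl2fastq 2.19.0). The authors deposited these raw counts, one set of matrices per pool, with a table of singlet nuclei that gives their sample, cell type and cluster. Doublets had been removed by the authors, from the hashtags and with scDblFinder. The 3 count layers were added, and symbols were found for 32158 of 32285 gene identifiers.

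The pericentral hepatocytes, the gene lists and the tests were chosen with earlier results of these data known. Nuclei are not replicates, so counts were summed per mouse and zone, and the replicates were the 8 mice. The 16 defining genes were left out of library sizes and tests. Genes with at least 10 counts over the sums entered edgeR 4.0.16 (R 4.3.3), with TMM scaling, the quasi-likelihood test, the mouse as a block and Benjamini-Hochberg adjustment at 0.05. For pericentral Cell Suspension against Liver the main fit had no block. There the mouse numbers pair the samples, since the methods take both from the same liver, and same-numbered samples deviated together (correlations of 0.327 to 0.693 over 7752 genes, highest for the own number in 8 of 8). The mean differences in median UMIs and in the spliced share used exact paired permutation tests in Python 3.11.15 (scipy 1.17.1). The fits were also run on simulated counts, which held no differences between mice beyond library size and so cannot show how the fits handle them.

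Genes outside the lists were named by a rule: the 15 highest and 10 lowest fold changes against periportal hepatocytes among genes past the threshold with at least 50 CPM and the same direction in 8 of 8 mice, then 8 against midlobular, 5 in each direction between Glul-rich and Glul-free nuclei and 5 for the interaction. Genes without a symbol or with symbols that start with Gm or end in Rik were left out, while AC102159.1 stayed. Some genes that the rule or the lists take are not reported here. CPM were scaled by TMM within each comparison, so values of a gene differ slightly between comparisons. Alternatives were RLE scaling, DESeq2 1.42.0, limma-voom (limma 3.58.1), other filters, spliced or unspliced counts, a score from thinned nuclei or without a gene, other UMI minimums, fits with or without the block, and leaving out each mouse. Gene coordinates came from GENCODE vM21 and promoters from RefSeq, both on GRCm38. Precision is limited by the 8 mice. The shares of thinned pericentral hepatocytes with a UMI also varied between mice (SD 9.02 percentage points for Glul and 11.6 for Lgr5).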

Additional observations from a re-analysis of the deposited data

Results flagged for a closer look

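In 3 of 45 groups of 8 mice tested, a single mouse stood apart from the others, and chance alone picks out about 1 group in 20. In pericentral hepatocytes of Liver, Hsd17b13 had 14.99 CPM in mouse 6 against 3.401 to 8.64 CPM in the others. Efna3 had 5.52 CPM in mouse 1 against 1.04 to 2.51 CPM, and Chrm3 6.49 CPM in mouse 5 against 3.08 to 4.69 CPM. All of these are low pericentral values of genes that were far higher in periportal hepatocytes.

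For 17 of 39 named genes the zonal difference changed between Liver and Cell Suspension by a test of the interaction itself, against 3.97% of all genes. This count is partly set by the choice of genes, since 5 were named for their interaction and others for the Liver difference that it subtracts. The log2 difference decreased for AC102159.1 (-2.26), Pparg (-1.50), Tox (-1.10), Rcan2 (-1.62), Kif26b (-1.30), Gna14 (-1.85) and Nkd1 (-3.002), all of which were pericentral in Liver. It became less negative for Cdh1 (1.47), Efna3 (0.89), Plxna2 (0.82), Arg1 (0.52) and Cps1 (0.45), which were periportal in Liver, so their zonal difference was smaller in the suspension. A positive interaction was also called for Hmcn2 (0.65), Igfbp2 (0.70), Dlec1 (2.03), Slc22a3 (1.87) and Nr4a1 (1.84). With the score from thinned nuclei, Efna3 (0.56, adjusted p = 0.288 by edgeR) and Plxna2 (0.29, adjusted p = 0.602) no longer passed, and Efna3 also fell short without each of mice 2 to 8, and Plxna2 without mouse 7 (0.65, adjusted p = 0.0708).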

How the results depend on the processing

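At an absolute log2 fold change of at least 1, 739 genes were higher and 571 lower than in periportal hepatocytes, 374 and 328 than in midlobular ones, 631 and 413 in Cell Suspension, and the interaction kept 145. Spliced counts alone called 1377 and 1332 against periportal and 790 and 1035 against midlobular. Without the replicate block for the mouse the counts fell to 1110 and 954, to 440 and 374, to 168 and 145 between Glul-rich and Glul-free nuclei and to 702 and 704 in Cell Suspension (the last 4 chosen after seeing the data). Adding the mouse number as replicate block to pericentral Cell Suspension against Liver gave 5490 genes, against 4078. DESeq2 called 556 genes lower in Glul-rich nuclei, against 1125, and 633 higher, against 681. The higher median UMI count per pericentral nucleus passed the exact permutation test with a thinned score (1835, p = 0.00781) and at a minimum of 4000 UMIs (1426, p = 0.0469). Bhmt reversed in spliced counts (-0.029, against 0.36) and Hamp between the top and bottom 10% of the score (-0.68, past the threshold, against 0.12). Leaving out 1 mouse at a time gave 827 to 1424 UMIs, with p = 0.0469 in the exact permutation test without mouse 2 or mouse 4, and 626 (without mouse 4) to 1109 interaction genes. The other totals stayed within 1.5 times the reported count. Over all alternatives other than leaving out a mouse, values of single genes against periportal lost their call 60 times and gained it 15 times. The cause of these changes was not tested. The 8 mice and the shallower suspension nuclei limit what small differences could be seen.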
